A study of Phaseolus vulgaris with 12 samples.

Results

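Leaves of the common bean (Phaseolus vulgaris) varieties 120 and 093 were compared by RNA sequencing after 3 days at 4 °C. The comparison rests on 6 of the 12 libraries of the series, 3 of variety 120 and 3 of variety 093. A locus was compared where its FPKM (mapped fragments scaled for transcript length and for the library's total) reached 1 in at least 3 of these 6 libraries. That held for 13541 of the 22542 loci in the deposited table (60.1%), of which 10983 carried a gene description, 11812 a GO term and 6666 a KEGG pathway.

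The study's design text calls variety 120 cold-tolerant and variety 093 cold-sensitive. The 120 and 093 plants under cold stood in an incubator at 4 °C, and the 120 and 093 plants without cold stayed on the rack where they were grown. All 4 groups received 12 h of light daily. Each variety had 3 pots per treatment and 4 seeds per pot, and true leaves were sampled. Cold and place cannot be told apart, although the 120 and 093 plants under cold shared both. With 1 variety of each kind, a difference between 120 and 093 cannot be assigned to tolerance. The sources used here give no plant age, no rack temperature and no time of day of sampling. The labels do not say that a group's 3 libraries came from separate plants or pots, so the p-values may reflect technical spread alone.

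Common bean is a warm-season legume whose leaves are injured by chilling. In plants generally, cold is perceived through membranes and calcium entry, passed on by receptor kinases and MAP kinase cascades, and answered by transcription factors that alter metabolism. Sugars of the raffinose family protect membranes, aquaporins set the flow of water across them, and nitrate reductase controls the entry of nitrate into amino acids.

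The 6 libraries under cold held FPKM sums of 325130 to 335227 in 120 and 340345 to 344885 in 093. Between 12816 and 12907 loci reached 1 FPKM in the 120 libraries, and between 13317 and 13357 in the 093 libraries. Read totals are unknown and counting intervals cannot be had. The 120 libraries differed more among themselves. The median coefficient of variation over loci averaging at least 10 FPKM was 15.9% in 120 and 5.22% in 093. Principal component 1 of the 6 libraries (69.4% of the variance) separated the varieties, and component 2 (14.9%) set library 3 of 120 apart from libraries 1 and 2 of 120. The leaf label was checked on Rubisco, and its small chain locus Phvul.004G073450 was abundant, at 4252, 1803 and 2689 FPKM in 120 and 3429, 3183 and 3265 FPKM in 093. The only oleosin locus, a marker of seed, was listed at 0 in all 6. The whole list for seed storage proteins summed to 151 to 173 FPKM in 120 and 226 to 229 FPKM in 093.

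Under cold, limma called 1841 of the 13541 loci (13.6%) between 120 and 093, at an adjusted p under 0.05 and a log2 difference of at least 1 in size on log2(FPKM + 1). Of them 819 were higher in 120 (6.05% of the loci compared) and 1022 were lower in 120 (7.55%). The 3 libraries of 120 did not overlap those of 093 at 1815 of the 1841 called loci, and at 55.1% of all loci compared. In bulk leaves, fewer cells of a type and less RNA per cell cannot be told apart. A difference of at least 2 on the log2 scale was reached by 195 loci higher and 213 loci lower in 120. A total of 240 loci passed the filter through the 120 libraries alone and 481 through the 093 libraries alone, and those loci had to differ. Limma called 187 of the 240 higher and 270 of the 481 lower in 120. Such loci are described below by their levels, and 17 and 11 of the loci named are among them.

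The balance of direction depended on scaling. As deposited, 44.5% of the calls were higher in 120. Median-ratio scaling, which raised the median log2 difference of all loci by 0.15, gave 57.6%, and quantile normalization, which raised it by 0.10, gave 54.5%. The median log2 difference of all loci compared was -0.12 as deposited, and differences below are to be read against it. Counts of called members in the lists and terms below are to be read against the 6.05% higher and 7.55% lower of all loci. All 3 scalings called 1491 loci in the same direction, 812 higher and 679 lower in 120, and no locus was called in opposite directions under either alternative scaling.

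**Figure D1:**
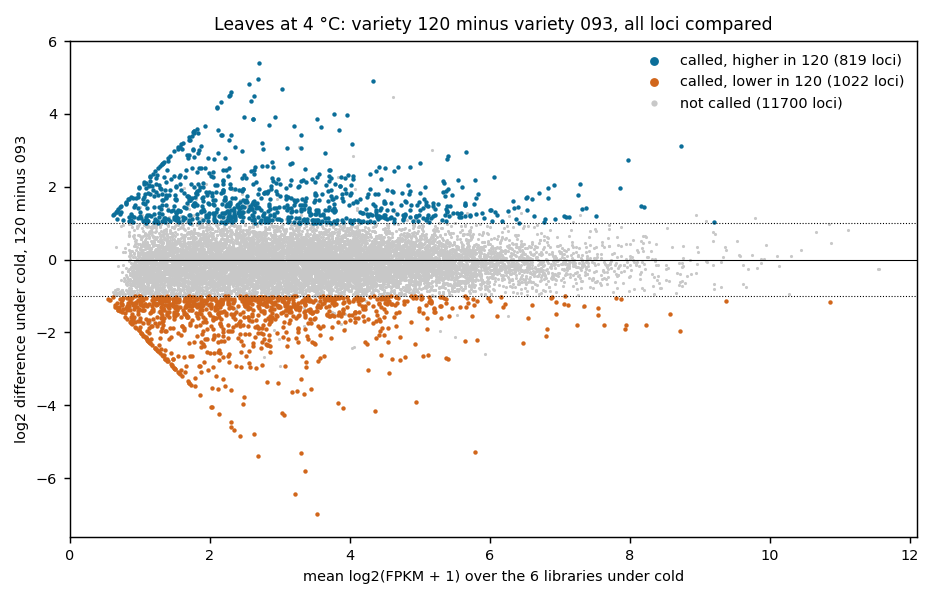
Log2 difference under cold, 120 minus 093, against the mean log2(FPKM + 1) of the 6 libraries under cold, with 1 point for each of the 13541 loci compared. The 819 loci called higher in 120 and the 1022 called lower lie outside the dotted lines at 1 and -1, over the whole range of levels.

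Described loci with the largest differences in favour of 120 included receptors, transcription factors and enzymes. A TIR-NBS-LRR disease resistance gene (Phvul.004G046400), of the family of intracellular receptors that recognise pathogens, had 134, 137 and 69.1 FPKM in 120, against 3.04, 2.62 and 2.35 FPKM in 093. The groups lay far apart under cold (log2 difference 4.90, SE 0.85, limma adjusted p = 0.0010). Without cold the locus had 15.8, 16.5 and 14.2 FPKM in 120 but 0.243, 0.198 and 21 FPKM in 093, so library 3 of 093 without cold stood with the 120 libraries. A homologue of WRKY33 (Phvul.010G062500), a transcription factor of defence and camalexin synthesis in Arabidopsis, had 53.5, 35.4 and 34.3 FPKM in 120 against 0.554, 0.401 and 0.931 FPKM in 093. It passed the filter through the 120 libraries alone, so the gap of 4.67 on the log2 scale is given as a level only. A homologue of MAP kinase kinase 2 (Phvul.009G229800), which acts in cold and salt signalling in Arabidopsis, had 57.4, 59.5 and 33.4 FPKM in 120 against 3.31, 3.23 and 2.99 FPKM in 093 (log2 difference 3.57, SE 0.20, adjusted p = 2.4e-07).

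Several of these loci were close to silent in 093 under cold. A Ras-related small GTPase locus (Phvul.008G265300), of a family that directs vesicle traffic, had 25.6, 23.5 and 17.5 FPKM in 120 and at most 0.0467 FPKM in 093. Receptor-like protein 45 (Phvul.008G079700) had 12.2, 12.3 and 7.41 FPKM in 120 and was listed at 0 in the 3 libraries of 093. A locus that carries the descriptions of receptor-like proteins 9 and 13 (MSTRG.9201) had 23.2, 19.4 and 11.5 FPKM in 120 and at most 0.000634 FPKM in 093. The 15 largest differences each way were picked only where the varieties did not overlap, so these gaps are part of the choice. Poly(A) polymerase 1 (Phvul.004G153014), which adds the tail of messenger RNA, had 24.3, 20.8 and 22.0 FPKM in 120 and at most 0.0548 FPKM in 093. Library 3 of 093 without cold again stood apart there, at 12.8 FPKM against 0 and 0.0525 FPKM in libraries 1 and 2.

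Also among the 15 largest differences in this direction were a PLAC8 protein (Phvul.005G169200), at 56.7, 55.7 and 24.7 FPKM in 120 against 1.68, 1.43 and 3.28 FPKM in 093, and an ADP-ribosylation factor C1 (Phvul.007G111100), at 54.2, 59.3 and 48.3 against 0.180, 5.07 and 4.66 FPKM. The log2 difference of ADP-ribosylation factor C1, 3.99, was 3.22 without library 1 of 093. PLANT CADMIUM RESISTANCE 2 (Phvul.002G319000), a metal transporter in Arabidopsis, had 47.4, 43.7 and 34.4 FPKM in 120 against 2.30, 2.36 and 2.49 FPKM in 093. An aspartyl protease (MSTRG.6948) had 74.9, 25.4 and 16.2 FPKM in 120 against 1.13, 2.14 and 1.54 FPKM in 093. Its log2 difference of 3.66 was 3.05 without library 1 of 120, where it was highest. Methyl esterase 3 (Phvul.002G022200), a homologue of enzymes that release hormones from their methyl esters, had 10.6, 11.5 and 10.3 FPKM in 120 and at most 0.0858 FPKM in 093.

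In the other direction, a 2Fe-2S ferredoxin-like locus (MSTRG.7297), of a family of electron carriers, was listed at 0 in the 3 libraries of 120 and had 94.0, 70.3 and 92.6 FPKM in 093. Zinc-finger protein 2 (Phvul.007G044500) was also listed at 0 in 120 and had 38.9, 39.1 and 44.5 FPKM in 093, as was the chaperone-type locus DNAJ-like 20 (Phvul.006G207600), with 28.9, 19.2 and 22.2 FPKM in 093. No fold is given for these loci because 120 was listed at 0. Lipoxygenase 3 (Phvul.002G228700), which oxidises linolenic acid, had 0.406, 0.604 and 0.725 FPKM in 120 against 59.1, 58.6 and 66.3 FPKM in 093. It passed the filter through the 093 libraries alone, so its log2 difference of -5.31 is given as a level only. A steroid dehydrogenase family locus (MSTRG.5031) had 6.66, 11.7 and 6.13 FPKM in 120 against 325, 311 and 399 FPKM in 093 (log2 difference -5.28, SE 0.78, adjusted p = 0.00035).

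Transport and cell wall genes also stood among the largest deficits of 120. A Nodulin MtN3 locus (Phvul.002G283800), of the SWEET family of sugar exporters, had 0.837, 0.379 and 1.68 FPKM in 120 against 35.3, 32.8 and 38.8 FPKM in 093 (log2 difference -4.27, SE 0.22, adjusted p = 1.1e-07). Cellulose synthase-like E1 (Phvul.008G279800) had 1.13, 0.717 and 0.849 FPKM in 120 against 35.8, 34.4 and 32.6 FPKM in 093. SPX domain gene 2 (Phvul.003G164900), a sensor of phosphate status, was listed at 0 in 120 and had 17.1, 14.6 and 14.5 FPKM in 093. A zinc-binding alcohol dehydrogenase (Phvul.007G039800) had 6.00, 7.51 and 7.18 FPKM in 120 against 118, 120 and 116 FPKM in 093. These 4 loci too were picked with no overlap under cold as a condition.

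Not every large difference was equally firm. An F-box locus (Phvul.002G064500) had 0, 1.70 and 0 FPKM in 120 against 21.6, 20.1 and 21.1 FPKM in 093, but in 120 without cold it had 90.8, 0 and 107 FPKM. It was not called under 8 of the 21 alternative settings. The chlorophyll A/B binding protein 1 locus Phvul.004G093200 was listed at 0 in 120 and had 15.7, 15.4 and 15.3 FPKM in 093, while without cold library 3 of 093 was at 0 too. The septum site-determining protein (Phvul.004G106800) was listed at 0 in 120 and had 17.1, 19.0 and 17.9 FPKM in 093, and without cold it was at 0 in some libraries of both varieties.

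**Figure D2:**
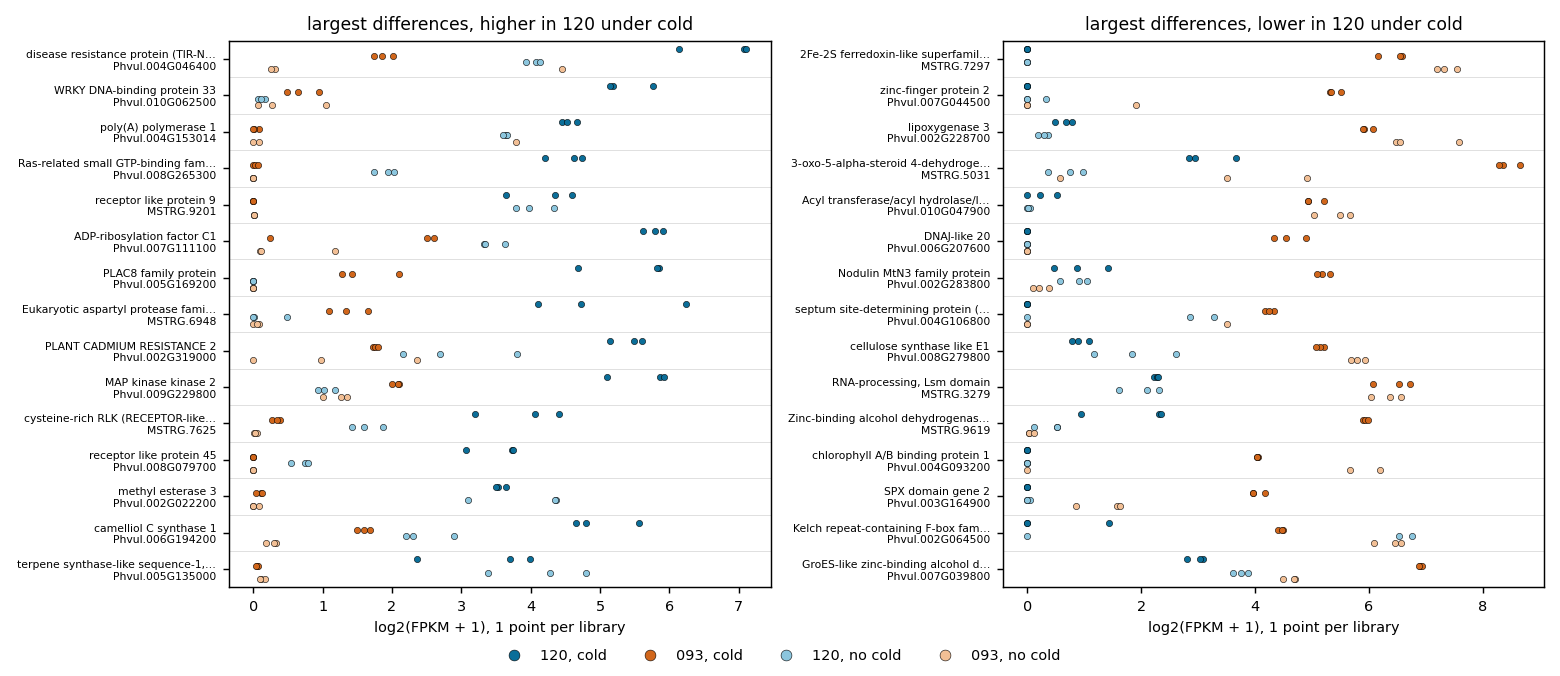
Log2(FPKM + 1) of the 15 described loci with the largest called difference in each direction under cold, with 1 point per library in 4 groups of 3 libraries. Loci were picked with no overlap under cold, so the points of 120 lie right of those of 093 in the left panel. In the right panel they lie left of them.

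WRKY proteins bind W-box elements and control defence and stress genes. Of 51 WRKY loci compared, 11 were called higher and 2 lower in 120 (25.5% called, against 13.6% of all loci), with a median log2 difference of 0.22 against -0.12 over all loci. The 11 ranged from 1.11 to 4.67, and 2 of them passed the filter through the 120 libraries alone. None of these 11 was called higher without cold, against 22.6% of all loci higher in 120 under cold. For 9 of the 11 the difference of the responses to cold was itself called, against 55.4% of all loci higher in 120 under cold. That test shares the libraries under cold. The second largest was a WRKY family locus (Phvul.002G297100) at 13.5, 9.85 and 21.1 FPKM in 120 against 1.48, 1.27 and 2.09 FPKM in 093. A homologue of WRKY11 (Phvul.009G233900) had 27.2, 21.5 and 15.3 FPKM in 120 against 4.76, 3.42 and 3.75 FPKM in 093. The 2 WRKY loci lower in 120 were homologues of WRKY70 (MSTRG.9096), at 25.1, 21.3 and 35.1 FPKM against 66.8, 68.5 and 69.6 FPKM in 093, and of WRKY51 (Phvul.002G265400), at 14.3, 13.3 and 10.6 FPKM against 27.2, 25.2 and 28.2 FPKM in 093. In Arabidopsis WRKY70 acts in salicylic acid signalling. WRKY70 was called lower without cold as well, and the call of WRKY51 was lost under both other scalings, with a pseudocount of 0.1 and without library 3 of either variety.

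Receptor kinases of the lectin, cysteine-rich and wall-associated kinds, which sense wall fragments and pathogens at the plasma membrane, were mostly higher in 120 where they were called. Of 61 compared, 17 were higher and 3 lower in 120 (32.8% called, against 13.6% of all loci), and the median log2 difference was 0.44. The cysteine-rich kinase locus MSTRG.7605 reached 121, 118 and 89.9 FPKM in 120 against 17.3, 16.3 and 12.0 FPKM in 093 (log2 difference 2.77, SE 0.17, adjusted p = 3.8e-07). Another cysteine-rich kinase, MSTRG.7625, had 15.7, 20.3 and 8.14 FPKM in 120 against 0.308, 0.203 and 0.260 FPKM in 093. An S-locus lectin kinase (Phvul.011G041400) had 9.77, 9.04 and 8.59 FPKM in 120 against 0.208, 0.324 and 0.262 FPKM in 093. Of the 17 loci higher in 120, 7 passed the filter through the 120 libraries alone, as the 3 lower ones did through the 093 libraries, and those had to differ. Without cold 4 of the 17 were called the same way, against 22.6% of all loci higher in 120 under cold. Reads of such near-identical family members can be split between copies by the authors' counting, so values of single copies are uncertain.

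Leucine-rich repeat receptors and intracellular resistance genes differed in both directions. Of 93 leucine-rich repeat loci 13 were higher and 12 lower in 120, and of 86 NBS-LRR loci 13 were higher and 12 lower. Called shares were 26.9% and 29.1%, against 13.6% of all loci. Of the 13 and 12 NBS-LRR loci, 8 and 6 passed the filter through 1 variety alone, as did 4 and 8 of the leucine-rich repeat loci. One NBS-LRR locus (Phvul.002G133400) had 5.92, 4.89 and 5.34 FPKM in 120 and was listed at 0 in 093, while MSTRG.13320 had 0.566, 0.453 and 0.277 FPKM in 120 against 9.58, 7.31 and 10.1 FPKM in 093. Among pathogenesis-related proteins, chitinases and glucanases, 5 of 36 loci were higher and 1 lower (16.7% called, against 13.6% of all loci). Of the 5, 2 passed the filter through the 120 libraries alone and had to differ. A basic chitinase (Phvul.003G268600), which degrades fungal walls, had 6.93, 6.62 and 8.11 FPKM in 120 against 1.89, 1.44 and 1.57 FPKM in 093.

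Of 578 GO terms with at least 15 loci compared, response to chitin had the largest share called higher in 120 and is given for that reason. Its loci were higher in 13 of 40 cases and lower in 2 (32.5% higher, against 6.05% of all loci), with a median log2 difference of 0.53. They include 7 of the 11 WRKY loci higher in 120. The homologue of MAP kinase 3 (Phvul.011G071400), a central kinase of defence and cold signalling, was among them at 213, 171 and 159 FPKM in 120 against 78.8, 82.5 and 83.2 FPKM in 093 (log2 difference 1.13, SE 0.24, adjusted p = 0.0034). Heat shock factor A2 (Phvul.009G078300), a heat stress transcription factor, had 3.32, 3.31 and 5.04 FPKM in 120 against 0.236, 0.380 and 0.193 FPKM in 093. Of 65 loci for calcium sensors and calcium-dependent kinases 3 were called higher and 1 lower in 120 (6.15% called, against 13.6% of all loci). They include calmodulin-like 11 (Phvul.001G155400) at 31.8, 23.4 and 8.04 FPKM in 120 against 1.92, 1.18 and 1.03 FPKM in 093, and the kinase CIPK1 (Phvul.003G121600) at 1.3, 1.94 and 1.21 FPKM in 120 against 11.4, 11.6 and 11.4 FPKM in 093. Outside that list, a calmodulin-binding transcription activator (Phvul.001G263000), of the CAMTA family that regulates cold-induced genes in Arabidopsis, had 32.4, 28.2 and 21.8 FPKM in 120 against 10.1, 10.7 and 10.7 FPKM in 093.

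**Figure D3:**
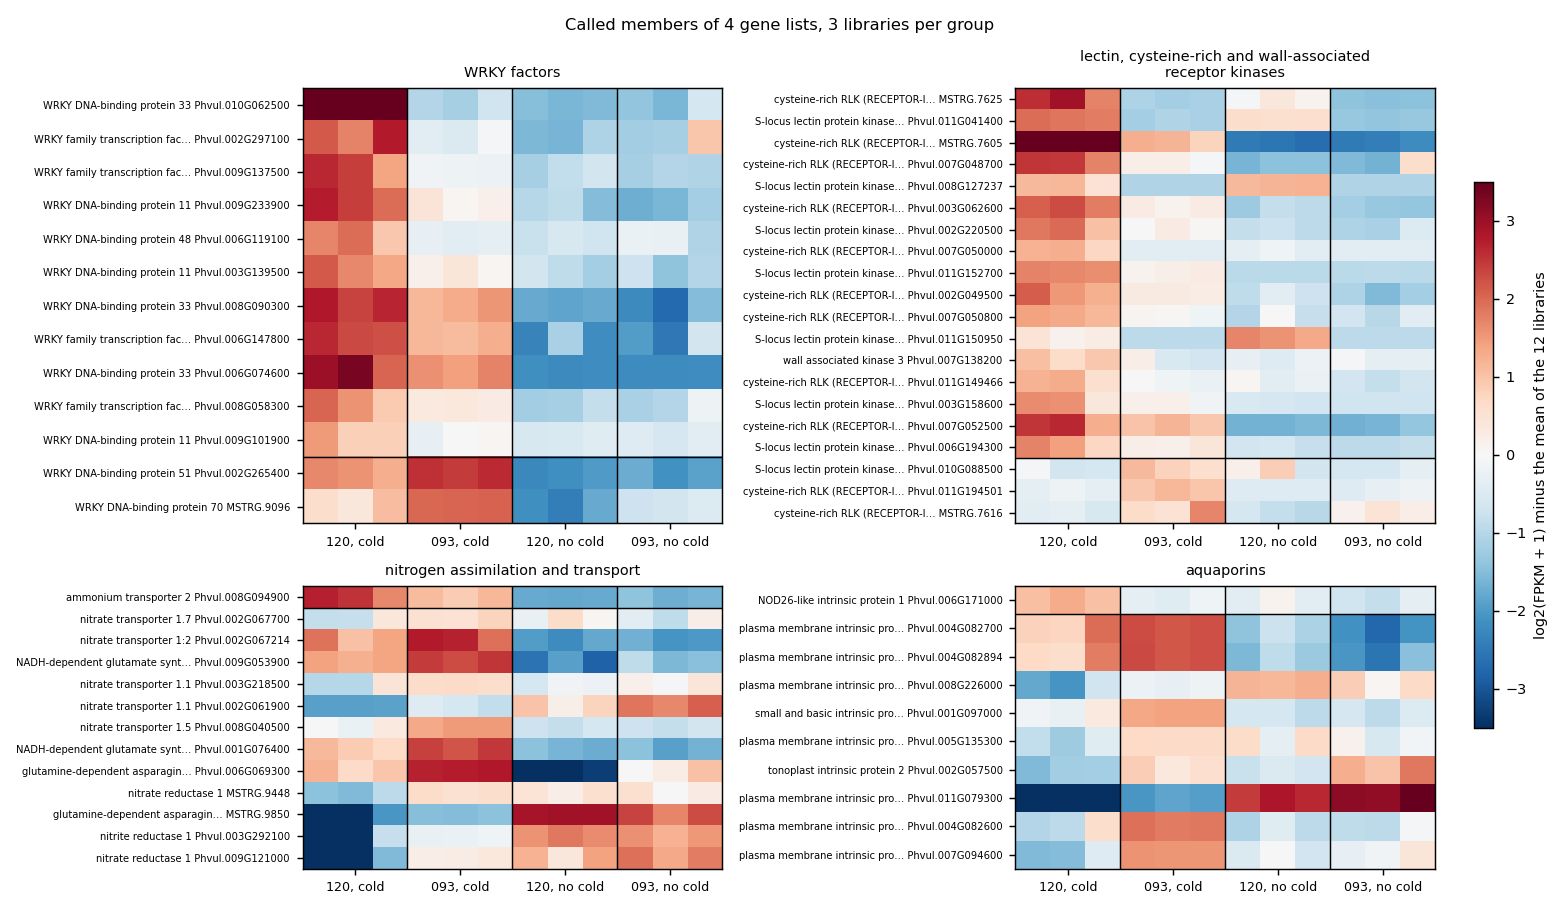
Log2(FPKM + 1) minus the mean of the 12 libraries for the members of 4 gene lists called under cold, with 1 row per locus and 3 columns per group. The 11 WRKY loci and 17 receptor kinase loci above the black lines are highest in 120 under cold for most rows, and the 12 nitrogen loci and 9 aquaporin loci below the black lines are lower in 120 than in 093 under cold.

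Abscisic acid genes were called in both directions. Abscisic acid is the hormone of water deficit and cold acclimation, and clade A PP2C phosphatases repress its signalling and are induced by it. Of 29 loci in the list 4 were called higher and 2 lower in 120 (20.7% called, against 13.6% of all loci). The median log2 difference was 0.16. The 2 lower ones were abscisic aldehyde oxidase 3 (Phvul.008G209900) and nine-cis-epoxycarotenoid dioxygenase 4 (Phvul.002G120600), at log2 differences of -1.18 and -1.03. The dioxygenase was at -0.83 without library 1 of 093 and at -0.95 without library 3 of 120, below the threshold in size, and 1 locus of the list was lower under each of the other scalings. The phosphatase HAI3 (Phvul.001G075400) had 111, 108 and 80.4 FPKM in 120 against 21.3, 20.3 and 21.2 FPKM in 093 (log2 difference 2.19, SE 0.15, adjusted p = 8.8e-07). HAI2 (Phvul.008G231200) had 122, 123 and 78.5 FPKM in 120 against 39.4, 45.1 and 40.8 FPKM in 093, and a homologue of ABI2 (Phvul.009G229900) had 34.8, 29.7 and 24.5 FPKM against 10.5, 11.4 and 10.0 FPKM. Outside the list, CYP707A1 (Phvul.003G278400), the family that inactivates abscisic acid, had 34.8, 32.7 and 34.9 FPKM in 120 against 5.47, 5.75 and 7.05 FPKM in 093. In these 4 loci the lowest 120 library was above the highest 093 library. That held for 20.7% of all loci compared and for 97.7% of those called higher.

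Auxin and ethylene genes were mostly lower in 120 where they were called. Of 53 auxin-responsive and auxin transport loci 2 were higher and 12 lower (22.6% lower, against 7.55% of all loci), with a median log2 difference of -0.63. Under median-ratio and quantile scaling 8 and 10 were lower. Of the 12, 2 passed the filter through the 093 libraries alone. The receptor gene auxin signaling F-box 2 (Phvul.001G087000) had 11.4, 8.60 and 7.99 FPKM in 120 against 34, 30.4 and 31.9 FPKM in 093. Auxin-induced protein 13 (Phvul.001G164900), a repressor of the Aux/IAA type, had 3.34, 4.28 and 1.69 FPKM in 120 against 16.4, 15.4 and 17 FPKM in 093. The 2 loci higher in 120 were an auxin-responsive family protein (Phvul.006G142300), at 143, 132 and 92.3 FPKM against 45.5, 46.6 and 48.1 FPKM in 093, and the auxin binding protein 1 of the endoplasmic reticulum (Phvul.007G168600), at 57.9, 55.1 and 63.7 FPKM against 28.8, 28.3 and 26.1 FPKM in 093. Of 11 ethylene loci 4 were lower (36.4%, against 7.55% of all loci) and 0 higher in 120. Under median-ratio scaling 2 were lower, and also without library 3 of 120. Of the 4, 2 passed the filter through the 093 libraries alone and had to differ. The ethylene-forming enzyme locus Phvul.006G144900, which makes the hormone, had 11.3, 8.86 and 7.03 FPKM in 120 against 31.1, 28.6 and 28.1 FPKM in 093. Gibberellin 2-oxidase 8 (Phvul.002G049000), which inactivates gibberellin, had 7.80, 13.1 and 5.76 FPKM in 120 against 64.9, 58.2 and 60.6 FPKM in 093. It belongs to a list of 12 gibberellin, cytokinin and brassinosteroid loci with 1 higher and 3 lower in 120.

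Lipoxygenases and jasmonate genes differed strongly but not in 1 direction. Lipoxygenases oxidise linoleic and linolenic acid, and the 13-lipoxygenases start jasmonate synthesis. Of 32 loci 4 were higher and 7 lower in 120 (34.4% called, against 13.6% of all loci), and lipoxygenase 3 above was the largest. Of the 4 and 7 loci, 1 and 3 passed the filter through 1 variety alone and had to differ. A PLAT/LH2 domain lipoxygenase (Phvul.007G055600) had 0.771, 1.18 and 0.936 FPKM in 120 against 14.5, 14.0 and 13.8 FPKM in 093. Oxophytodienoate reductase 3 (Phvul.003G131500), a later enzyme of jasmonate synthesis, had 10.9, 21.6 and 9.03 FPKM in 120 against 40.1, 34.6 and 34.9 FPKM in 093. On the other side, a lipoxygenase 2 locus (Phvul.006G016900) had 176, 238 and 77.5 FPKM in 120 against 63.1, 61.2 and 68.6 FPKM in 093. That call was lost without library 1 or library 2 of 120. A lipoxygenase 1 locus (MSTRG.12139) had 5.27, 3.61 and 10.3 FPKM in 120 against 0.457, 0.434 and 0.389 FPKM in 093, and without cold it had 113, 108 and 150 FPKM against 0.199, 0.285 and 0.212 FPKM. The KEGG pathway of linoleic acid metabolism had 3 of 27 loci higher and 9 lower in 120, and 2 and 5 of these are in the list.

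Water channels were mostly lower in 120 where they were called. Of 21 aquaporin loci 9 were called lower (42.9%, against 7.55% of all loci) and 1 higher, while 11 were not called. The median log2 difference was -0.83, and 8 and 9 were lower under the other scalings. A plasma membrane intrinsic protein 2 (Phvul.007G094600) had 11.4, 11.7 and 25.6 FPKM in 120 against 106, 103 and 104 FPKM in 093 (log2 difference -2.71, SE 0.29, adjusted p = 3.1e-05). Another of the same description (Phvul.004G082600) had 25.3, 27.8 and 82.1 FPKM in 120 against 204, 190 and 191 FPKM in 093. Library 3 of 120 was the highest of the 120 libraries in both loci. The PIP2;4 locus Phvul.011G079300 had 4.23, 4.44 and 5.87 FPKM in 120 against 21.7, 24.7 and 23.3 FPKM in 093, and without cold it was among the abundant transcripts of both, at 505, 654 and 577 FPKM in 120 against 812, 798 and 1138 FPKM in 093. The locus higher in 120 was NOD26-like intrinsic protein 1;2 (Phvul.006G171000), at 20.3, 24.4 and 20.1 FPKM against 7.19, 6.67 and 8.32 FPKM in 093. Summed over the list, aquaporins came to between 808 and 1393 FPKM in 120 and between 1907 and 2019 FPKM in 093. Of the 9 loci lower under cold, 8 had a called difference of the responses, against 64.3% of all loci lower in 120 under cold. That test shares the libraries under cold. Without cold 1 of the 9 was called lower as well and 1 higher, against 18.2% and 4.21% of all loci lower in 120 under cold.

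Loci of nitrogen transport and assimilation were mostly lower in 120 where they were called. Of 32 loci 12, of which 5 encode nitrate transporters, were called lower (37.5%, against 7.55% of all loci) and 1 higher. The median log2 difference was -0.38, and 8 were lower under each of the other scalings. Nitrate reductase 1 (Phvul.009G121000), which reduces nitrate to nitrite, had 0.890, 0.982 and 7.57 FPKM in 120 against 28.2, 29.1 and 31.6 FPKM in 093 (log2 difference -3.27, SE 0.48, adjusted p = 0.00033). The more abundant nitrate reductase locus (MSTRG.9448) had 115, 105 and 164 FPKM in 120 against 481, 453 and 481 FPKM in 093 (log2 difference -1.90, SE 0.19, adjusted p = 2.3e-05). Nitrite reductase 1 (Phvul.003G292100), the next enzyme, had 6.62, 7.11 and 70.5 FPKM in 120 against 104, 105 and 112 FPKM in 093 (log2 difference -2.72, SE 0.64, adjusted p = 0.0062). Library 3 of 120 lay nearer to the 093 libraries than to the other 120 libraries there, without overlap. Leaving it out moved the log2 difference to -3.78 for nitrite reductase and to -3.98 for Phvul.009G121000.

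Further along the pathway, an asparagine synthase 1 locus (MSTRG.9850), which stores nitrogen as asparagine, had 28.1, 33.5 and 155 FPKM in 120 against 227, 220 and 236 FPKM in 093. Its log2 difference of -2.09 was -2.85 without library 3 of 120. A second asparagine synthase 1 locus (Phvul.006G069300) had 156, 108 and 133 FPKM in 120 against 440, 453 and 477 FPKM in 093, and an NADH-dependent glutamate synthase (Phvul.001G076400) had 25.2, 21.1 and 18.1 FPKM against 61.4, 53.4 and 65.5 FPKM. In both the 120 libraries lay together below the 093 libraries, as at 34.4% of all loci compared and 99.3% of those called lower. The locus higher in 120 was ammonium transporter 2 (Phvul.008G094900), at 22.5, 19.6 and 10.4 FPKM against 6.72, 5.56 and 7.05 FPKM in 093. The GO term nitrate assimilation had 0 of 30 loci higher and 12 lower, and 6 lower under each of the other scalings.

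Sugar genes were also mostly lower in 120 where they were called. Of 29 loci for sucrose, trehalose and raffinose metabolism 7 were lower and 1 higher in 120, and of 26 sugar transporters 6 were lower and 0 higher. The shares lower were 24.1% and 23.1%, against 7.55% of all loci. In each list 1 of the lower loci passed the filter through the 093 libraries alone. Summed over the list, sugar transporters came to 552 to 861 FPKM in 120 and 717 to 758 FPKM in 093, with overlap. The sucrose, trehalose and raffinose list came to 363 to 549 FPKM in 120 and 738 to 768 FPKM in 093. Galactinol synthase 2 (Phvul.001G223700), which starts the raffinose family of protective sugars, had 5.05, 6.97 and 1.09 FPKM in 120 against 29.4, 30.0 and 29.0 FPKM in 093 (log2 difference -2.71, SE 0.36, adjusted p = 0.00017). The member higher in 120 was galactinol synthase 1 (Phvul.001G215300), at 5.57, 2.63 and 7.94 FPKM against 1.21, 1.17 and 1.80 FPKM in 093. Beta-fructofuranosidase 5 (Phvul.001G036700), which splits sucrose, had 5.08, 4.03 and 3.25 FPKM in 120 against 24.4, 24.3 and 23.0 FPKM in 093. Sucrose synthase 4 (Phvul.003G127500), which cleaves sucrose into UDP-glucose, had 1.76, 2.48 and 2.36 FPKM in 120 against 14.0, 12.8 and 13.9 FPKM in 093. No library of 120 reached a library of 093 at these 3 loci, as at 34.4% of all loci compared and 99.3% of those called lower. Of the 6 sugar transporters lower in 120, 4 were MtN3 loci of the SWEET family. One of them (Phvul.002G300900) was listed at 0 in 120 and, without cold, in both varieties, and had 1.57, 2.06 and 2.35 FPKM in 093 under cold. Of 28 starch loci 1 was higher and 3 lower. Beta-amylase 5 (Phvul.011G107700) had 125, 90.7 and 86.1 FPKM in 120 against 28.4, 29.8 and 32.0 FPKM in 093, and beta-amylase 3 (Phvul.006G161200), also a starch-degrading enzyme, had 104, 104 and 99.9 FPKM against 264, 235 and 256 FPKM.

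Loci of the photosynthesis lists were called in both directions or not at all. Of 37 photosystem loci 2 were higher and 1 lower in 120, of 21 antenna loci 2 and 2, of 15 loci for Calvin cycle enzymes and Rubisco 1 and 2, and of 15 loci for chlorophyll synthesis none. Called shares were 8.11% for photosystems, 19.0% for antennae and 20% for the Calvin cycle list, against 13.6% of all loci. Lists of this size do not show whether such shares differ. Both antenna loci lower in 120 passed the filter through the 093 libraries alone and had to differ. Rubisco activase (Phvul.001G234300), which keeps Rubisco active, had 1334, 1369 and 1044 FPKM in 120 against 2778, 2681 and 2841 FPKM in 093 (log2 difference -1.16, SE 0.28, adjusted p = 0.0068), and this call was lost under median-ratio scaling and when no filter on low values was used. A second locus whose description includes Rubisco activase had 124, 101 and 154 FPKM in 120 against 136, 133 and 137 FPKM in 093, with overlap. Transketolase (Phvul.003G037400), of the Calvin cycle and the pentose phosphate pathway, had 11.7, 9.42 and 12.4 FPKM in 120 against 37.4, 34.7 and 37.3 FPKM in 093.

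Genes named for cold and stress proteins were called in both directions. No CBF/DREB locus of the 3 in the table reached the filter under cold. Of 23 loci for cold-regulated, dehydrin and LEA proteins 3 were higher and 3 lower in 120 (26.1% called, against 13.6% of all loci). Of the 3 higher and the 3 lower, 1 and 2 passed the filter through 1 variety alone and had to differ. The membrane protein COR413-PM2 (Phvul.011G049500), induced by cold in Arabidopsis, had 82.1, 88.8 and 43.2 FPKM in 120 against 26.7, 26.4 and 28.6 FPKM in 093 (log2 difference 1.29, SE 0.27, adjusted p = 0.0029). LEA4-5 (MSTRG.703), a late embryogenesis abundant protein, had 27.1, 30.8 and 27.9 FPKM in 120 against 14.3, 1.72 and 14.7 FPKM in 093, and its log2 difference of 1.77 was 0.93 without library 2 of 093, below the threshold of 1. The call was also lost without library 2 of 120 and with a pseudocount of 0.1. Of 139 heat shock and chaperone loci 8 were higher and 8 lower, of 28 antioxidant enzymes 1 and 1, of 23 glutathione S-transferases 2 and 1, and of 25 class III peroxidases 3 and 3. Called shares were 11.5%, 7.14%, 13.0% and 24%, against 13.6% of all loci. Monodehydroascorbate reductase 6 (Phvul.002G292800), which regenerates ascorbate, had 8.56, 14.8 and 79.8 FPKM in 120 against 105, 108 and 109 FPKM in 093. Its log2 difference was -2.24, against -3.14 without library 3 of 120 and -1.60 without library 1 of 120.

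Few genes of protein synthesis and turnover were called. Of 150 cytosolic ribosomal protein loci 1 was higher and 1 lower in 120 (1.33% called, against 13.6% of all loci). Of 40 proteasome loci none was called. The 4 loci of the NOP10 family in the table were an exception in RNA modification. NOP10 is a core protein of the H/ACA particles that guide pseudouridylation of ribosomal RNA. All 4 were compared and all 4 were called higher in 120, against 6.05% of all loci. Of the 4, Phvul.008G022975 passed the filter through the 120 libraries alone and had to differ. None of the 4 was called without cold, as held for 75.9% of all loci higher in 120 under cold. Phvul.001G162100 had 28.7, 31.9 and 41.9 FPKM in 120 against 16.3, 12.6 and 12.7 FPKM in 093. Phvul.008G022975 had 5.19, 5.69 and 8.92 FPKM in 120 against 0.214, 0.520 and 0.328 FPKM in 093, and Phvul.011G076600 had 7.58, 4.97 and 12.0 FPKM against 1.63, 1.80 and 3.07 FPKM. In Phvul.007G033301 the values were 11, 12.2 and 16.2 FPKM in 120 against 0.112, 3.43 and 2.55 FPKM in 093, and its log2 difference of 2.42 was 1.81 without library 1 of 093. Near-identical copies of this family may share reads, and the call of Phvul.011G076600 was lost with a pseudocount of 0.1. These 4 loci made up all calls of the GO terms snoRNA binding (15 loci) and Cajal body (16 loci). The median log2 difference of these terms was -0.33 and -0.12, against -0.12 over all loci.

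Terpenoid genes were among those that differed with and without cold. Of 34 terpene and carotenoid loci 6 were higher and 4 lower in 120, and 4 of the 6 passed the filter through the 120 libraries alone. Camelliol C synthase 1 (Phvul.006G194200), an oxidosqualene cyclase of triterpene synthesis, had 46.3, 26.8 and 24.3 FPKM in 120 against 2.22, 2.01 and 1.81 FPKM in 093. A cineole-type terpene synthase (Phvul.005G135000), of monoterpene synthesis, had 12.0, 4.14 and 14.8 FPKM in 120 and at most 0.0478 FPKM in 093. Both were called higher in 120 without cold as well. Phytoene desaturation 1 (Phvul.008G194300), of carotenoid and plastoquinone synthesis, had 12.6, 14.8 and 10.8 FPKM in 120 against 65.4, 65.2 and 71.2 FPKM in 093 (log2 difference -2.32, SE 0.48, adjusted p = 0.0028). Of 58 cytochrome P450 loci 5 were higher and 10 lower in 120, of 39 phenylpropanoid and flavonoid loci 2 and 4, and of 34 UDP-glycosyltransferases 1 and 3. Called shares were 25.9%, 15.4% and 11.8%, against 13.6% of all loci. Of the 5 and 10 cytochrome P450 loci, 3 and 4 passed the filter through 1 variety alone and had to differ.

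Cell wall genes differed in both directions. Of 29 expansin and xyloglucan endotransglucosylase loci 5 were higher and 7 lower in 120, of 33 cellulose synthases and related proteins 4 and 4, and of 32 pectin-modifying enzymes and inhibitors 3 and 3. Called shares were 41.4%, 24.2% and 18.8%, against 13.6% of all loci. Of the 5 and 7 loci of the expansin list, 1 and 2 passed the filter through 1 variety alone. Xyloglucan endotransglycosylase 6 (Phvul.003G143332), which cuts and rejoins wall xyloglucan, had 35.7, 37.6 and 16.3 FPKM in 120 against 6.73, 7.77 and 7.08 FPKM in 093. Expansin-like B1 (Phvul.002G004100), of a wall-loosening family, had 5.43, 8.05 and 2.84 FPKM in 120 against 0.502, 0.565 and 0.296 FPKM in 093. Lipid transfer proteins were higher in 3 of 10 loci and lower in 1, and fatty acid desaturases and synthesis in 0 and 1 of 24.

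Among the other transcription factor lists, AP2/ERF factors had 4 of 27 loci higher and 1 lower in 120, NAC factors 4 and 6 of 53, MYB factors 4 and 7 of 44, and bHLH factors 8 and 10 of 62. Called shares were 18.5%, 18.9%, 25% and 29.0%, against 13.6% of all loci. Of the 4 and 7 MYB loci, 2 and 3 passed the filter through 1 variety alone and had to differ. An AP2/ERF locus described as Integrase-type DNA-binding (Phvul.010G159500) had 5.32, 7.67 and 4.34 FPKM in 120 against 0.228, 0.487 and 0.306 FPKM in 093. A NAC factor related to NAP (Phvul.003G045600), a regulator of leaf senescence in Arabidopsis, had 8.31, 8.72 and 5.67 FPKM in 120 against 46.5, 37.1 and 41.2 FPKM in 093. Of 21 circadian clock loci 5 were lower and 0 higher in 120 under cold, and 8 were lower and 1 higher without cold, where 3.87% and 5.66% of all loci were. A part of sampling time in these differences was not tested. CONSTANS-like 2 (Phvul.008G022800), of a family of day-length regulators, had 5.18, 9.87 and 8.5 FPKM in 120 against 21.8, 23.0 and 25.2 FPKM in 093.

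Marker lists of other tissues were checked as well. Of 88 cell division and histone loci 3 were higher and 3 lower in 120, and of 8 pollen and flower loci 0 and 1. Of 8 loci compared from the list for seed storage proteins 0 were higher and 2 lower, with sums of 151 to 173 FPKM in 120 and 226 to 229 FPKM in 093. All 8 are cupins, a family that also has members in leaves. Of 5 nodule loci 1 was lower in 120, a hemoglobin 1 locus (Phvul.011G048700) listed at 0 in 120 and at 3.5, 5.62 and 4.57 FPKM in 093.

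**Figure D4:**
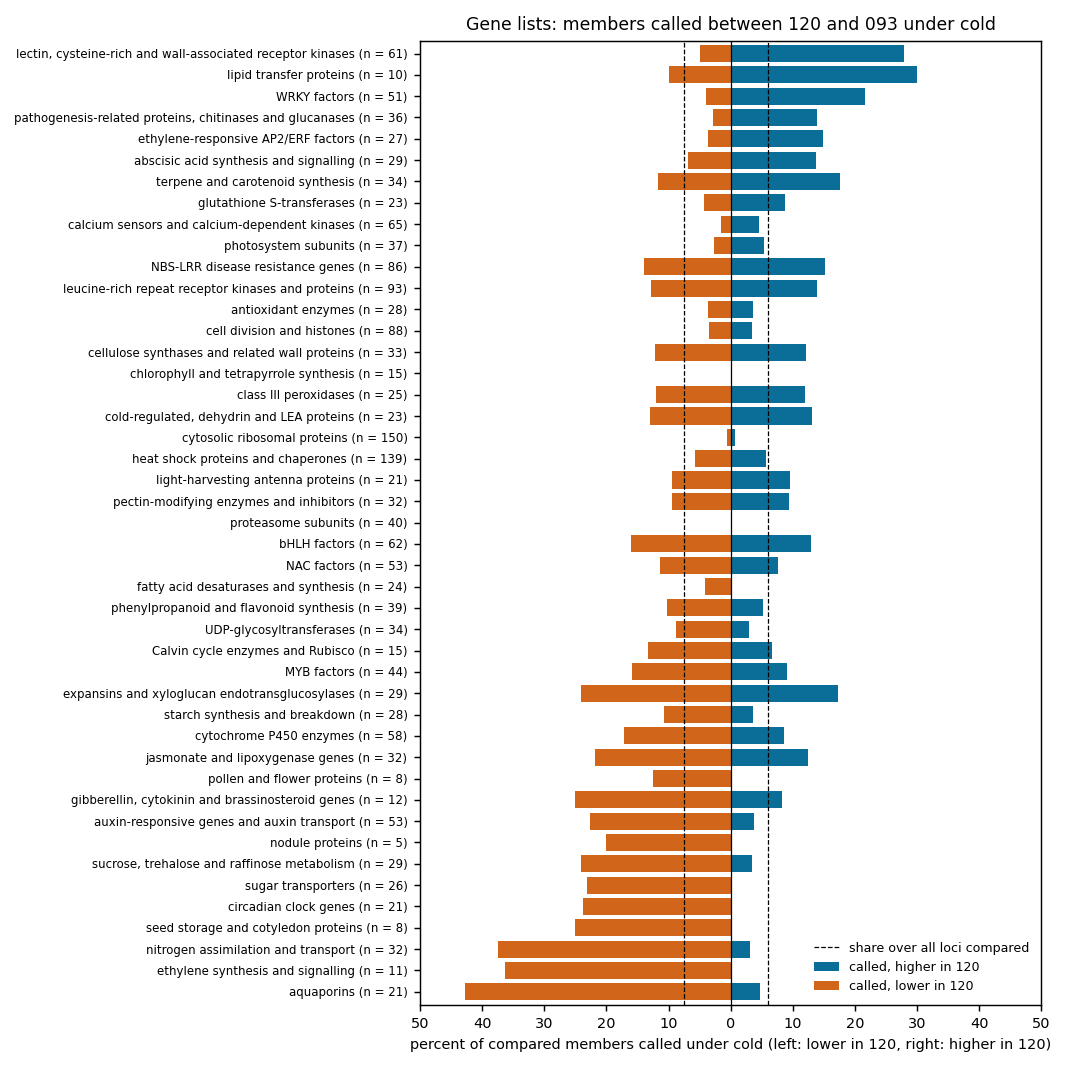
Percent of the compared members of each gene list called under cold, to the right for higher in 120 and to the left for lower in 120, with dashed lines at the 6.05% and 7.55% of all loci. Lipid transfer proteins (10 loci) and the lectin, cysteine-rich and wall-associated receptor kinases (61 loci) extend furthest to the right, and aquaporins (21 loci) furthest to the left.

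Of 108 KEGG pathways with at least 15 loci compared, sesquiterpenoid and triterpenoid synthesis had the largest share called higher in 120, with 3 of 15 loci and none lower. Amino sugar and nucleotide sugar metabolism came next with 34 of 245 higher and 19 lower. The table assigns receptor kinases to that pathway, 50 of the lectin, cysteine-rich or wall-associated kind, and they supplied 15 of its 34 loci higher in 120. The largest shares lower in 120 were those of linoleic acid metabolism, of glycosaminoglycan degradation (16 of 58 lower, 0 higher) and of stilbenoid and related synthesis (5 of 19 lower, 1 higher). The table places 12 of the aquaporins in glycosaminoglycan degradation, and they supplied 8 of its 16 loci lower in 120. Alanine, aspartate and glutamate metabolism had 10 of 48 loci lower and 1 higher in 120. The GO term symporter activity had 8 of 15 loci lower in 120, but 3 under median-ratio scaling and 2 under quantile normalization.

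The same loci were then read without cold, in 6 libraries that share none with the comparison under cold. There limma called 1291 loci (9.53%), 767 higher and 524 lower in 120, from the loci that passed the filter under cold. Of those calls 59.4% were higher in 120, against 49.5% under median-ratio scaling and 48.9% under quantile normalization. Library 3 of 093 without cold had 120-like values at loci above (Phvul.004G046400, Phvul.004G153014 and Phvul.004G093200) and at others not named here. It enters every count without cold and every difference of the responses, and whether it is a mixed sample was not tested. Without it 904 loci were called higher and 503 lower in 120 without cold. Of the 819 loci higher in 120 under cold, 185 (22.6%) were called higher without cold, 12 were called lower and 622 were not called. Of the 1022 loci lower in 120 under cold, 186 (18.2%) were called lower without cold, 43 were called higher and 793 were not called. A locus called in only 1 of the comparisons need not differ between them. The difference of the responses to cold, tested as the interaction of variety and cold, was called at 2623 loci (19.4%), 859 (6.34%) with a more positive and 1764 (13.0%) with a more negative response in 120. It shares the libraries under cold. Of these calls 32.7% were higher in 120, against 53.9% and 50.4% under the other scalings. It was called at 427 of the 622 loci higher in 120 under cold and not called without cold, and at 595 of the 793 lower ones. A total of 203 loci higher in 120 and 193 lower in 120 were under 1 FPKM in all 6 libraries without cold.

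Differences present in both conditions included the ferredoxin-like locus MSTRG.7297, at 0 in 120 and at 186, 145 and 158 FPKM in 093 without cold. Lipoxygenase 3 (Phvul.002G228700) had 0.138, 0.289 and 0.219 FPKM in 120 against 87.8, 91.7 and 190 FPKM in 093 without cold. The receptor-like locus MSTRG.9201 had 19.1, 14.8 and 12.8 FPKM in 120 against at most 0.0095 FPKM in 093. These 3 loci had the same order of varieties in both conditions with no overlap. All 3 passed the filter through 1 variety alone and were chosen for a difference in both conditions, so this order is part of the choice. By contrast, WRKY33 (Phvul.010G062500) had 0.125, 0.0463 and 0.0804 FPKM in 120 against 0.202, 0.0428 and 1.07 FPKM in 093 without cold, and the SWEET locus Phvul.002G283800 had 0.492, 1.06 and 0.882 FPKM against 0.301, 0.156 and 0.0772 FPKM. Both were low in each variety without cold.

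**Figure D5:**
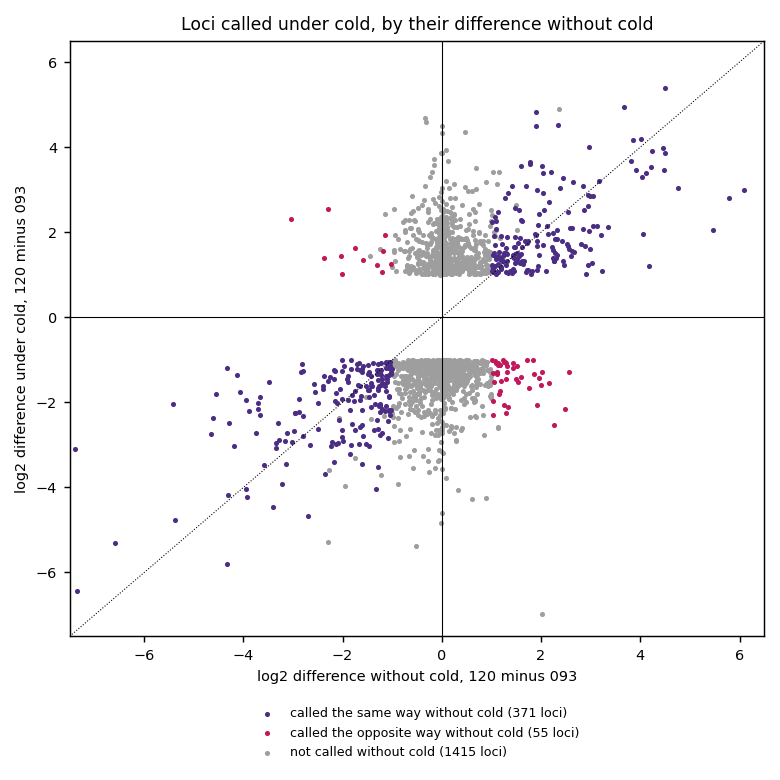
Log2 difference under cold against log2 difference without cold, 120 minus 093, for the loci called under cold, with a dotted line at equal differences. The 185 higher and 186 lower loci called the same way without cold lie in the upper right and lower left, and the 12 and 43 called the opposite way in the other quadrants.

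The 5 largest reversals between conditions were found in a phosphatase, a peroxidase, an acid phosphatase, a dehydrogenase and an ion transporter. A pyridoxal phosphate phosphatase-related locus (MSTRG.12168) had 1.87, 2.03 and 2.16 FPKM in 120 against 15.7, 16.5 and 17.4 FPKM in 093 under cold. Without cold it had 15.8, 10.4 and 7.53 FPKM in 120 against 1.89, 1.45 and 1.13 FPKM in 093, so the order of the varieties was turned round with no overlap in either condition. A GroES-like dehydrogenase (Phvul.011G018000) had 11.1, 16.3 and 8.33 FPKM in 120 against 1.12, 1.84 and 1.64 FPKM in 093 under cold, and 0.751, 1.03 and 0.794 FPKM against 11.3, 20.6 and 12.3 FPKM without cold. A divalent ion symporter (Phvul.004G111900) had 63.7, 53.0 and 38.4 FPKM in 120 against 7.90, 8.07 and 7.57 FPKM in 093 under cold, and 0.898, 0.628 and 0.473 FPKM against 4.73, 10.0 and 7.44 FPKM without cold. A class III peroxidase (Phvul.008G249500) was lower in 120 under cold and higher without cold, as was purple acid phosphatase 8 (Phvul.002G181500), which releases phosphate from organic esters. The phosphatase had 11.3, 11.9 and 6.12 FPKM in 120 against 40.5, 41.8 and 45.7 FPKM in 093 under cold, and 13.0, 15.8 and 14.1 FPKM against 6.58, 1.32 and 2.82 FPKM without cold.

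Some loci were listed in 1 variety only under cold, at 1 FPKM or more in its 3 libraries and at most 0.1 FPKM in the 3 of the other. There were 60 such loci in 120 and 88 in 093, and 26 and 35 of them kept that pattern without cold. These loci passed the filter through 1 variety and had to differ. The highest in 120 was MSTRG.5057, which has no description, at 49.0, 47.2 and 29.8 FPKM in 120 and 0 in 093. A DUF793 protein of unknown function (Phvul.005G036000) had 26.5, 37.1 and 12.4 FPKM in 120 and was at 0 in 093. The highest in 093 was Phvul.002G196000, without a description, at no more than 0.0712 FPKM in 120 and at 142, 148 and 101 FPKM in 093. Without cold that locus was at 123, 0 and 143 FPKM in 120 and at 0.0509, 11 and 19.8 FPKM in 093, so its libraries disagreed within both groups.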

How the data were processed

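Stranded dUTP libraries of oligo(dT)-selected leaf RNA were sequenced on an Illumina NovaSeq, per the labels' protocols. The authors deposited FPKM per locus. Cutadapt 1.9, HISAT2 2.0.4 and StringTie 1.3.4d are named in the submitters' processing notes, which also name DESeq2 and edgeR. The genome build is not given in the sources used here, and read counts were not analysed here, so the depth behind each value is unknown. FPKM of each library is relative to its own total, so a few abundant transcripts can shift all others.

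Values were compared as log2(FPKM + 1), which understates changes of low loci, with limma 3.58.1 (trend) in R 4.3.3 over 12 libraries in 4 groups. Contrasts were 120 minus 093 under cold, 120 minus 093 without cold, and their difference, each with Benjamini-Hochberg adjustment over all 13541 loci. The code was tested on simulated data. Described loci were named by size: the 15 largest calls each way, the 2 largest of each of 46 gene lists and of each named KEGG pathway, and the 5 largest of each class set with and without cold or in 1 variety only. The 15 each way also had to show no overlap between the varieties under cold. Another 31 loci were chosen after their values were seen. Members and lists were chosen with earlier results of these data known. Lists were matched on the deposited descriptions, which are mostly Arabidopsis names. Alternatives were other scalings, filters, a pseudocount of 0.1, a robust fit, a fit on the 6 libraries, a replicate block and leaving out each library.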

Additional observations from a re-analysis of the deposited data

Results flagged for a closer look

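The difference between 120 and 093 itself differed with and without cold at 2623 of the 13541 loci, by limma's test of the interaction of variety and cold. Among the 99 compared loci named in the report it was called at 71, 36 with a more positive and 35 with a more negative difference under cold. Over all loci compared the share was 19.4%. Most of the 99 were named by their difference under cold and some by the difference of the responses, which shares those libraries. Their count is therefore no result about them. Of the loci named, 17 and 11 passed the filter through 120 or 093 alone and had to differ under cold. The value of such a locus contains that difference, so it is given as a size only and not as a test result. Those listed are marked below as loci that had to differ under cold. The values below are differences of the responses, 120 minus 093, in log2(FPKM + 1), and for a locus listed at 0 in a group their size depends on the pseudocount.

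In signalling, the value was 5.02 for WRKY33 (Phvul.010G062500), 3.51 for the WRKY family locus Phvul.002G297100 and 1.77 for the WRKY11 locus Phvul.009G233900. MAP kinase kinase 2 (Phvul.009G229800) had 3.73 and MAP kinase 3 (Phvul.011G071400) 1.13, while heat shock factor A2 (Phvul.009G078300) had 1.91. Calmodulin-like 11 (Phvul.001G155400) had 2.90, the calmodulin-binding activator (Phvul.001G263000) 1.68 and CIPK1 (Phvul.003G121600) -3.03. Among surface receptors the values were 2.96 for MSTRG.7605, 1.97 for MSTRG.7625, 1.07 for Phvul.011G041400 and 2.82 for receptor-like protein 45 (Phvul.008G079700). The NBS-LRR loci had 2.59 for Phvul.002G133400 and -2.08 for MSTRG.13320, and the basic chitinase (Phvul.003G268600) had 1.20. The AP2/ERF locus Phvul.010G159500 had 2.22, the NAC factor (Phvul.003G045600) -2.14, zinc-finger protein 2 (Phvul.007G044500) -4.86 and CONSTANS-like 2 (Phvul.008G022800) -2.19. In this group Phvul.010G062500, Phvul.009G078300, MSTRG.7625, Phvul.011G041400, Phvul.008G079700, Phvul.002G133400, MSTRG.13320, Phvul.010G159500 and Phvul.007G044500 had to differ under cold.

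In hormone genes, HAI3 (Phvul.001G075400) had 1.63 and CYP707A1 (Phvul.003G278400) 2.42. The auxin loci had -1.75 for Phvul.001G087000, -2.18 for Phvul.001G164900 and 1.60 for Phvul.006G142300, and gibberellin 2-oxidase 8 (Phvul.002G049000) had -1.51. Lipoxygenase 3 (Phvul.002G228700) had 1.28, lipoxygenase 1 (MSTRG.12139) -4.38 and oxophytodienoate reductase 3 (Phvul.003G131500) -1.45. Both lipoxygenase loci had to differ under cold.

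Water and nitrogen genes were mostly on the negative side. The aquaporins had -2.31 for Phvul.007G094600, -2.10 for Phvul.004G082600 and -1.41 for Phvul.011G079300, against 1.02 for the NOD26-like locus Phvul.006G171000. Nitrate reductase had -2.60 for Phvul.009G121000 and -2.04 for MSTRG.9448, nitrite reductase (Phvul.003G292100) -2.96 and glutamate synthase (Phvul.001G076400) -1.5. Asparagine synthase had -2.89 for MSTRG.9850 but 2.77 for Phvul.006G069300, and ammonium transporter 2 (Phvul.008G094900) had 1.44.

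In carbon metabolism, the SWEET-type loci had -4.88 for Phvul.002G283800 and -1.57 for Phvul.002G300900, and galactinol synthase 2 (Phvul.001G223700) had -2.68. Beta-fructofuranosidase 5 (Phvul.001G036700) had -3.12, sucrose synthase 4 (Phvul.003G127500) -2.04 and beta-amylase 3 (Phvul.006G161200) -2.39. Rubisco activase (Phvul.001G234300) had -1.26 and transketolase (Phvul.003G037400) -1.61. Camelliol C synthase 1 (Phvul.006G194200) had 1.22, xyloglucan endotransglycosylase 6 (Phvul.003G143332) 1.95 and expansin-like B1 (Phvul.002G004100) 2.10. In this group Phvul.002G300900 and Phvul.002G004100 had to differ under cold.

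The NOP10 loci had 1.94 for Phvul.001G162100, 2.44 for Phvul.008G022975, 1.54 for Phvul.011G076600 and 2.18 for Phvul.007G033301. COR413-PM2 (Phvul.011G049500) had 1.3, the PLAC8 locus (Phvul.005G169200) 3.85, the aspartyl protease (MSTRG.6948) 3.54, the Ras-related locus (Phvul.008G265300) 2.59 and the DUF793 locus (Phvul.005G036000) 4.92. On the other side were DNAJ-like 20 (Phvul.006G207600) with -4.59, hemoglobin 1 (Phvul.011G048700) with -2.46, SPX domain gene 2 (Phvul.003G164900) with -2.70 and the alcohol dehydrogenase (Phvul.007G039800) with -3.04. In this group Phvul.008G022975, Phvul.008G265300, Phvul.005G036000, Phvul.006G207600, Phvul.011G048700 and Phvul.003G164900 had to differ under cold.

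The 5 loci whose order of varieties was reversed had -4.79 (MSTRG.12168), -4.63 (Phvul.008G249500), -3.97 (Phvul.002G181500), 5.35 (Phvul.011G018000) and 4.84 (Phvul.004G111900). The septum site-determining protein (Phvul.004G106800) had -5.13 and Phvul.002G196000 had -9.01, and both rest on groups without cold whose libraries disagreed. Both also had to differ under cold.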

How the results depend on the processing

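At the thresholds used, leaving out 1 library at a time gave 1709 to 2182 calls under cold, against 1841 with all libraries, and the highest count came without library 3 of 120. It gave 1138 to 1407 calls without cold and 2330 to 2964 for the difference of the responses. A pseudocount of 0.1 gave 2392 calls under cold, and requiring a log2 difference of at least 2 gave 408. Loci with a lower response in 120 numbered 1764 as deposited, 1071 under median-ratio scaling and 1159 under quantile normalization. Loci listed in 120 only numbered 31 where 093 had to be at exactly 0 and 23 where 5 FPKM was required. Loci listed in 093 only numbered 26 where 5 FPKM was required. Same-numbered libraries did not deviate together (r of 0.01 to 0.03 under cold), so the numbers do not pair the samples, and a replicate block gave 1830 calls, 809 higher and 1021 lower in 120. Of the 151 loci described here or picked by the naming rule, 136 were called under each of the 21 alternatives, 15 lost the call under at least 1, and none reversed. The 151 were picked by their values in these libraries, which favours keeping the call. Of all 1841 calls under cold, 87.4% to 92.8% were kept when 1 library under cold was left out. Counting error could not be given because read totals are unknown, and values of low loci are therefore the least certain.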
